A study of Mus musculus with 3 samples.

Results

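Among the 35702 cell barcodes of 3 single-cell RNA libraries from mouse brain, 1188 barcodes (3.33%) carried messages of neurons and are described here as neuron RNA barcodes. A barcode marks the RNA caught with 1 bead in 1 droplet, and a UMI, a unique molecular identifier, marks 1 captured RNA molecule. A barcode was a member when it had 500 to 3000 UMIs and held 5 or more UMIs in sum from at least 3 of Meg3, Snhg11, Snap25, Gria2, Grin2b, Pclo and Syne1. These 7 genes chose the members, so that their high level in them is a description and not a finding, and members are not called neurons, since a droplet can hold RNA without an intact cell.

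Wt mice were compared with PLPmut mice, homozygous for a mutated transgene and without the endogenous gene, and with PLPtg mice, hemizygous for additional copies of a wild-type gene, all on the C57BL/6J background. All mice were 10 months old, and brains of 3 mice, with optic nerves, leptomeninges and choroid plexus, were pooled into 1 library for each genotype. Viable CD45low Siglec-H+ microglia and CD45- O1+ oligodendrocytes were sorted after Accutase digestion and a Percoll step whose myelin layer was thrown away, and no gate of this sort selects neurons. With 1 library for each genotype there is no replicate, and no test between genotypes was possible. All intervals given are 95% intervals for counting error alone (exact Poisson intervals for levels, exact conditional intervals for ratios, exact Clopper-Pearson intervals for shares), and differences between libraries cannot be told apart from differences between preparations.

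Neurons receive signals on dendrites and soma and send them along an axon to presynaptic boutons. Part of their mRNA stays close to the nucleus, part is transported into dendrites and axons, and long non-coding RNAs such as Meg3, Miat and Mirg are retained largely in the nucleus. Projection neurons of the cortex release glutamate, whereas the medium spiny neurons that form most of the striatum release GABA and are divided by their dopamine receptors, Drd1 with the neuropeptide gene Tac1 or Drd2 with Adora2a and Penk.

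Meg3, the most abundant of the 7 genes, and Mirg, which the rule did not use, lie on mouse chromosome 12 (GRCm38) in the imprinted Dlk1-Dio3 region, at chr12:109541001-109571726 and chr12:109729764-109749460 on the plus strand, and both are annotated as long intergenic non-coding RNAs that host miRNAs. Mirg was 83.3 times as high in the members as in the other barcodes of the same UMI range. Since it shares strand and region with Meg3, which the rule used, this ratio is not independent of the rule. RefSeq (GRCm38.p6) places 14 miRNA hairpins within Mirg. The miRNAs below are shown because they are the products of these host transcripts: miR-134-5p is known for its place in dendritic spines, miR-770-5p lies within Meg3, and miR-453 and miR-496a-5p were the only ones of the listed arms that share a seed. Capitals mark the seed, bases 2 to 8. UMI counts read the polyadenylated host transcripts and do not measure the mature miRNAs.
mmu-miR-134-5p (Mirg, chr12:109734145-109734166): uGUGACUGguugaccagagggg
mmu-miR-453 (Mirg, chr12:109735669-109735692): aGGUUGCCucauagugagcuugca
mmu-miR-496a-5p (Mirg, chr12:109739132-109739152): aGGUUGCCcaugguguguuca
mmu-miR-770-5p (Meg3, chr12:109563710-109563731): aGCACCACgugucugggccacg

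The number of members differed between the libraries. The Wt library held 324 members among 13556 barcodes (2.39%, interval 2.14% to 2.66%), the PLPmut library 84 among 9955 (0.844%, 0.674% to 1.04%) and the PLPtg library 780 among 12191 (6.4%, 5.97% to 6.85%). Among the barcodes of 500 to 3000 UMIs alone, members made up 8.52% of 3804 in Wt, 5.95% of 1412 in PLPmut and 20.1% of 3878 in PLPtg. The order of the libraries was the same over both denominators, with PLPtg highest and PLPmut lowest, but it turned when barcodes that also met the rule for another cell type were left out, with 3 members in Wt, 17 in PLPmut and 9 in PLPtg. The gate, the number of cells loaded and the range of UMIs can set such shares, and their part was not tested.

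Members were small. Their median was 720.5 UMIs and 512 genes in Wt, 780.5 UMIs and 546.5 genes in PLPmut, and 818 UMIs and 552 genes in PLPtg, and 845 of the 1188 had 1000 UMIs or fewer. The median over all barcodes was 5830, 7150 and 5568 UMIs in Wt, PLPmut and PLPtg, with total counts of 77677489, 75251446 and 68760898 UMIs. Together the members held 1131593 UMIs (0.510% of all), of which 279023 came from Wt, 77147 from PLPmut and 775423 from PLPtg, so that values of the PLPmut library are the least precise. No barcode under 500 UMIs is in the matrices, and 78 Wt, 15 PLPmut and 133 PLPtg members lay between 500 and 600 UMIs, directly above this limit.

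The 7 genes gave a median of 14 UMIs for each member in Wt, 16.5 in PLPmut and 15 in PLPtg, about 2% of its UMIs. Meg3 with 13072 UMIs and Snhg11 with 6655 UMIs contributed most of the sum, followed by Syne1 (2355), Gria2 (1678), Pclo (1396), Grin2b (896) and Snap25 (395). Just inside the threshold, 9 Wt, 6 PLPmut and 41 PLPtg barcodes had a sum of exactly 5. Just outside, 18, 13 and 58 barcodes had a sum of 4, while 22, 8 and 50 barcodes reached the sum from fewer than 3 genes. By contrast, 3082, 1203 and 2057 barcodes of the range had no UMI of any of the 7 genes.

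Few barcodes were shared between libraries by sequence. Wt and PLPmut shared 38 barcodes, Wt and PLPtg 44, and PLPmut and PLPtg 40, and no more than 4 of those in any library were members.

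Other neuronal genes were high in the same barcodes. Of 15 pan-neuronal genes that the rule did not use, 12 were at least 10 times as high in members as in the other barcodes of the range, against 9.87% of all 12713 genes compared (24.3% were at least 2 times as high). The median of this list was 19.4 times, beside a median of 0.984 over all genes. Map1b, a microtubule-associated protein of growing and adult axons, was at 774, 1063 and 907 UMIs per 1000000 UMIs (CPM) in Wt, PLPmut and PLPtg, compared with 31.3 CPM in the other barcodes. Celf4, an RNA-binding protein of neurons, was at 462, 804 and 449 CPM, and the vesicle calcium sensor Syt1 at 323, 544 and 449 CPM. Rbfox3, which encodes the nuclear antigen NeuN, was at 355, 272 and 387 CPM. Among the genes below 10 times, Stmn3 was at 3.69 times and the RNA-binding protein gene Elavl4 at 1.5 times.

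After thinning each barcode to 500 UMIs, 33.0% of members and 1.96% of barcodes with microglia genes had a UMI of Map1b, and 16.6% and 0.661% had one of Rbfox3. Without thinning, 47.5% of members had a UMI of Map1b and 26.7% of Rbfox3, at a median depth of 768.5 UMIs in members and 1228 UMIs in the other barcodes. The source of the neuronal UMIs in the other barcodes was not tested, and the shares in members were above theirs for both genes.

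The genes with the largest ratio to the other barcodes included further synaptic and axonal genes beside the non-coding RNAs. Ccsap led with 126 UMIs in members and 8 in all other barcodes (142 times as high), followed by the adhesion molecules Tenm2 (113 times) and Igsf9b (106 times). Il1rapl1 (84.0 times), Dlgap2 (80.7 times) and Lrfn5 (78.7 times) encode proteins of the postsynapse, Cadps (81.5 times) primes dense-core vesicles, and Scn8a (81.5 times) is the sodium channel of the axon initial segment. The axon guidance gene Slit3 was 83.6 times, the copines Cpne5 and Cpne7 were 85.7 and 78.3 times, the ubiquitin ligase gene Rnf165 was 84.8 times, and the chromatin remodeller Smarca1 was 78.4 times as high. The non-coding A830036E02Rik was 90.2 times and C78859 81.2 times as high. By abundance, however, members were led by Malat1 (48228 CPM), the microglial protease inhibitor gene Cst3 (25527 CPM) and Gm42418, which overlaps ribosomal RNA sequence (18150 CPM).

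Of the neuron type lists, that of striatal projection neurons had the highest summed level, although lists differ in size and levels are not scaled for transcript length, so that sums do not rank the types by RNA content. All 12 genes of the striatal list were detected, 11 of them at least 10 times as high as in the other barcodes (9.87% of all genes compared). The summed level was 1609 CPM in Wt (1464 to 1765), 2035 in PLPmut (1729 to 2379) and 1246 in PLPtg (1168 to 1327). The phosphodiesterase gene Pde10a led with 126 UMIs in Wt, 47 in PLPmut and 317 in PLPtg (452, 609 and 409 CPM). Rgs9, a regulator of dopamine signalling, was at 401, 389 and 263 CPM, the adenylyl cyclase gene Adcy5 at 183, 246 and 159 CPM and the transcription factor Bcl11b at 165, 181 and 116 CPM. Each of these 4 genes was lowest in PLPtg. Among the receptors and peptides, Penk had 37, 13 and 73 UMIs, Tac1 21, 6 and 23, Adora2a 9, 10 and 18, Drd1 8, 1 and 18, and Drd2 9, 3 and 15. The exception below 10 times was Ppp1r1b, the gene of the phosphoprotein DARPP-32, at 3.44 times.

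Glutamatergic genes were present at a lower summed level of 219 CPM in Wt (167 to 281), 480 in PLPmut (338 to 661) and 446 in PLPtg (400 to 496). Slc17a7, the vesicular glutamate transporter of the cortex, had 27, 16 and 156 UMIs (96.8, 207 and 201 CPM), and Neurod2, a transcription factor of cortical excitatory neurons, had 19, 13 and 91 UMIs. The vesicle protein gene Sv2b had 6, 7 and 50 UMIs. Neurod6 and Tbr1 were rarer, with 17 and 15 UMIs in all members, and Slc17a6, the transporter of subcortical glutamatergic neurons, had 4 UMIs, all in PLPtg. Genes of cortical layers ran alongside in PLPtg. Cux2, a factor of upper layers, was at 50.2 CPM in Wt, 64.8 in PLPmut and 147 in PLPtg, and Rorb of layer IV was at 17.9, 51.8 and 54.2 CPM. In contrast, Foxp2 was at 50.2, 38.9 and 41.3 CPM. Tle4 of the same list was lower in members than in the other barcodes (0.494 times), so the list's sum is no measure of cortex alone.

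GABAergic genes had 42 UMIs in Wt, 12 in PLPmut and 92 in PLPtg, or 151, 156 and 119 CPM, and made up 24.7% of the UMIs of the GABAergic and glutamatergic lists together (21.3% to 28.4%). This share is led by PLPtg, with 346 of the 444 glutamatergic UMIs (61 in Wt and 37 in PLPmut). It was 6.67% without barcodes that met the rule for another cell type. The interval of that value (0.169% to 31.9%) is wide and includes 24.7%. The glutamate decarboxylase genes Gad1 and Gad2 had 52 and 47 UMIs in all members, and the vesicular GABA transporter gene Slc32a1 20. Most markers of cortical interneurons were rare. Sst and Htr3a had 0 UMIs, which allows up to 2.65 CPM, Lhx6 had 0 UMIs, Npy, Vip and Calb2 had 3 UMIs each, and Pvalb had 9. Reln (61 UMIs) and Lamp5 (43 UMIs) were the exceptions of this list.

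Cerebellar, hippocampal and subcortical markers were sparse. Gabra6, the receptor subunit of cerebellar granule cells, had 14 UMIs in all members, and 7 of them came from the 84 PLPmut members. The summed granule cell list was at 82.4 CPM in Wt, 246 in PLPmut (19 UMIs, 148 to 385) and 58.0 in PLPtg. Of the Purkinje list, Pcp2 and Car8, the most specific genes, had 0 UMIs in members, while Itpr1 (352 UMIs) and Calb1 (55), which other neurons also express, accounted for most of the level of the list. The hippocampal list was at 40.7 CPM in members and 25.6 CPM in barcodes with microglia genes, the thalamic list, which Prkcd led, was lower in members (167 and 289 CPM), and hypothalamic peptides summed to 9 UMIs. Monoaminergic and cholinergic genes summed to 3 UMIs and the glycinergic genes to 0. Dcx and Sox11 of the neuroblast list had 43 and 47 UMIs, but Dlx2 of the same list had 0.

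**Figure D1:**
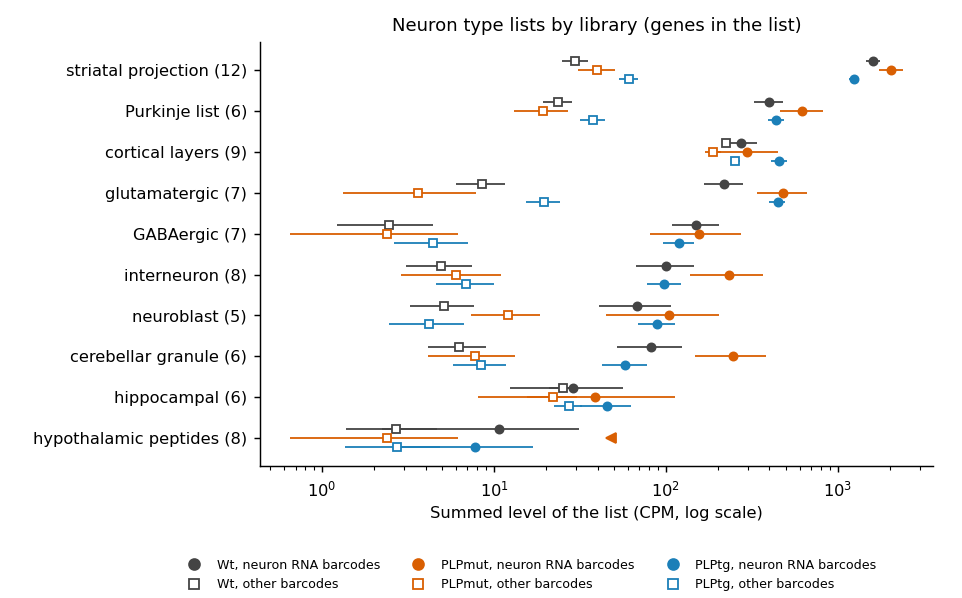
Summed level of each neuron type list (CPM, log scale; number of genes in brackets) in neuron RNA barcodes (filled circles) and in the other barcodes of 500 to 3000 UMIs (open squares) by library, with 95% Poisson intervals; the triangle marks the upper limit of a list with 0 UMIs. The sum of the striatal list is the highest in every library, at 1609, 2035 and 1246 CPM, while the hippocampal list lies close to the other barcodes.

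Striatal and glutamatergic UMIs were counted in each barcode. With a minimum of 3 striatal UMIs, 214 members were striatal-like in their RNA, and with a minimum of 2 glutamatergic UMIs, 94 were glutamatergic-like. Both minimums were met by 10 members, all of them in PLPtg, and 890 met neither. A glutamatergic UMI was held by 22 of the 214 striatal members (10.3%, 6.56% to 15.2%) and by 272 of the other 974 (27.9%, 25.1% to 30.9%). In the opposite direction the groups were close, since 36 of the 94 glutamatergic members (38.3%, 28.5% to 48.9%) and 462 of the other 1094 (42.2%, 39.3% to 45.2%) held a striatal UMI, and in PLPtg the shares were 39.5% and 37.9%. Of the 105 members with 5 or more striatal UMIs, 100 had no glutamatergic UMI, 3 had 1 and 2 had 2. Among the 214 striatal members, 50 (23.4%, 17.9% to 29.6%) had a UMI of the GABAergic list, compared with 50 of the 974 remaining members (5.13%, 3.83% to 6.71%) and 2 of the 94 glutamatergic members (2.13%). At the median of 768.5 UMIs an absent UMI does not show that a gene was absent, and the members that met neither minimum had the lower median of 729.5 UMIs, beside 889 in members that were striatal alone and 1198.5 in members that were glutamatergic alone.

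**Figure D2:**
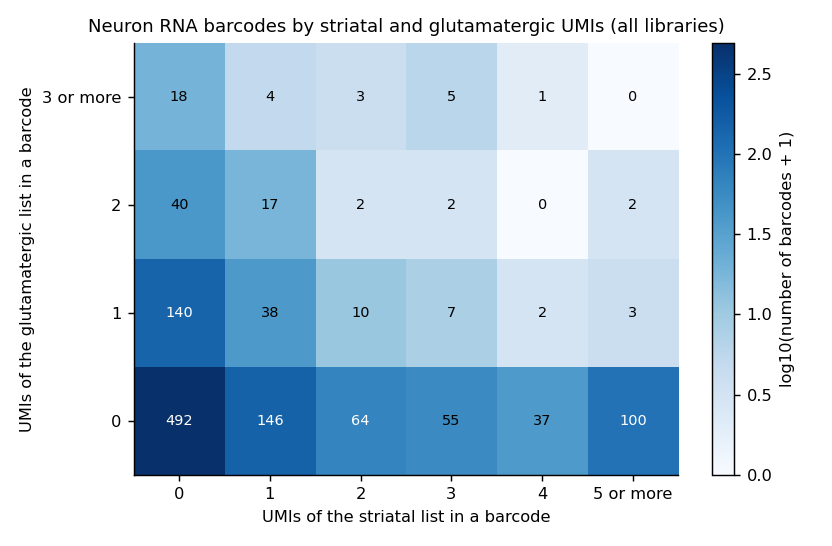
Number of neuron RNA barcodes (printed in each cell, shaded by log10 of the number plus 1) by UMIs of the 12 striatal genes (horizontal axis) and of the 7 glutamatergic genes (vertical axis), all libraries together. Counts are spread along both axes, and 100 of the 105 barcodes in the column of 5 or more striatal UMIs hold no glutamatergic UMI.

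Markers of the dopamine receptor classes are part of the striatal list, so that their division among striatal members partly follows from its minimum and is given as a description. Of the 214 striatal members, 34 had Drd1 or Tac1 without any UMI of Drd2, Adora2a or Penk, 70 had the latter without the former, 2 had both and 108 had neither. The pattern was alike in the libraries: 12, 21 and 1 members in Wt, 3, 7 and 0 in PLPmut, and 19, 42 and 1 in PLPtg belonged to the Drd1 side, the Drd2 side and both.

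Genes were also ranked by their ratio between both groups, and those named here were chosen from the ends of this ranking after their values had been seen, so that their difference is a description. In members that were striatal alone (204 barcodes, 215140 UMIs) against those that were glutamatergic alone (84 barcodes, 111238 UMIs), the striatal potassium channel gene Kcnk2 had 32 UMIs and 0, the sodium channel subunit gene Scn4b 39 and 0, and the G protein subunit gene Gng7 25 and 0. Set against the limit of 3 counts over the group, these genes were at least 5.52-fold, 6.72-fold and 4.31-fold higher, and their exact intervals began at 4.23, 5.21 and 3.25. Foxp2 (29 and 0 UMIs) and Reln (31 and 0) lay on the striatal side as well, although the lists fixed for them name the cortex and interneurons. Gprin3 had 50 UMIs and 1, Rasgrp2 49 and 1, and Pcp4, a calmodulin regulator, 61 and 3. On the glutamatergic side, Car10 had 0 UMIs in striatal and 26 in glutamatergic members (at least 16.8-fold higher, exact interval from 12.7), C1ql3, a secreted synaptic protein, 4 and 34, and the nuclear non-coding RNA Miat 13 and 90, which is 13.4 times as high (7.45 to 26.1). Cux2 was 7.98 times (3.61 to 19.99), Shank1 6.82 times (4.15 to 11.7) and the transcription factor Tcf4 6.68 times (4.5 to 10.2) as high in glutamatergic members. These ratios pool libraries of unequal mix, since 66 of the 84 glutamatergic and 110 of the 204 striatal members were from PLPtg, where Cux2 and Miat were highest over all members.

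The mix of types differed between libraries. Of the barcodes assigned to 1 of the 2 types, 74 of 85 were striatal in Wt (87.1%, 78.0% to 93.4%), 20 of 27 in PLPmut (74.1%, 53.7% to 88.9%) and 110 of 176 in PLPtg (62.5%, 54.9% to 69.7%). These intervals count barcodes within 1 pooled library for each genotype, so that whether they overlap is no test between genotypes. With minimums of 5 striatal and 3 glutamatergic UMIs, the shares were 93.8% in Wt (79.2% to 99.2%), 78.6% in PLPmut and 71.1% in PLPtg (60.6% to 80.2%). After thinning to 500 UMIs, with minimums of 2 and 1, the shares were 68.0%, 54.5% and 46.4%, and among members of 1000 UMIs or more they were 88.9%, 70.0% and 54.6%, so that the order stayed the same. In addition, the summed type lists were set against neuronal RNA alone. For this, 890 genes outside the rule that were at least 20 times as high in members as in the other barcodes were taken as neuron-enriched. For each 1000 of their UMIs, there were 21.6 striatal UMIs in Wt, 21.2 in PLPmut and 14.1 in PLPtg, and 2.94, 4.99 and 5.06 glutamatergic UMIs. The neuron-enriched genes were chosen on all libraries together, of which PLPtg holds most members.

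The 890 neuron-enriched genes gave 7.44% of member UMIs in Wt, 9.61% in PLPmut and 8.81% in PLPtg, and 0.138%, 0.175% and 0.326% in the barcodes with microglia genes of the same libraries. The gap between both follows from how these genes were chosen, and neuronal messages that other cells share are not counted in it. In the microglia barcodes the percentage was thus highest in PLPtg, where the share of members was highest as well. Between PLPmut and Wt the order depended on the measure. Over summed UMIs PLPmut had the higher percentage, although its share of members was lower. The median microglia barcode, however, had 0.0371% in Wt, 0% in PLPmut and 0.140% in PLPtg, the same order as the share of members. The 90th percentile was 0.255%, 0.366% and 1.31%. The part of this percentage in the number of members was not tested.

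Nearly every member also carried microglial RNA. When the rule was applied in the same form to 7 microglial genes, among them Cx3cr1, P2ry12, C1qa, C1qb, Tmem119 and Csf1r, 321 of 324 Wt members (99.1%), 67 of 84 PLPmut members (79.8%) and 771 of 780 PLPtg members (98.8%) met it, as did 7868 of the 7906 other barcodes of the range, which are called microglia barcodes here. Only 4 members met the rule with astrocyte genes and 0 with oligodendrocyte genes. The microglia list was at 20167 CPM in Wt members, 10862 in PLPmut and 17505 in PLPtg, compared with 28746, 27437 and 30102 CPM in the microglia barcodes, which corresponds to 0.702 times (0.683 to 0.721), 0.396 times (0.369 to 0.424) and 0.582 times (0.571 to 0.592). C1qa, the most abundant of these genes over all members, and C1qb were at 4992 and 4362 CPM in Wt members and at 2670 and 2748 CPM in PLPmut members.

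Microglial genes were not lowered equally. In Wt, PLPmut and PLPtg, Csf1r, the receptor on which microglial survival depends, was at 0.442, 0.229 and 0.373 times its level in microglia barcodes. Cx3cr1 was at 0.610, 0.287 and 0.486 times, whereas Cst3 was at 1.01, 0.627 and 0.831 times and the adaptor gene Tyrobp at 1.01, 0.538 and 0.755 times. The immediate early gene Jun was at 0.335, 0.289 and 0.372 times. The choroid plexus gene Ttr was at 0.106, 0.0395 and 0.128 times and the globin gene Hbb-bs at 0.110, 0.181 and 0.177 times. The astrocyte list, in contrast, was near its level in the microglia barcodes. It was at 312 CPM in members and 321 CPM in microglia barcodes, and the oligodendrocyte list at 127 and 171 CPM. Fewer cells of a type and less RNA per cell cannot be told apart in such sums. Whether the microglial RNA of members came from a cell, its fragments or free RNA was not tested.

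**Figure D3:**
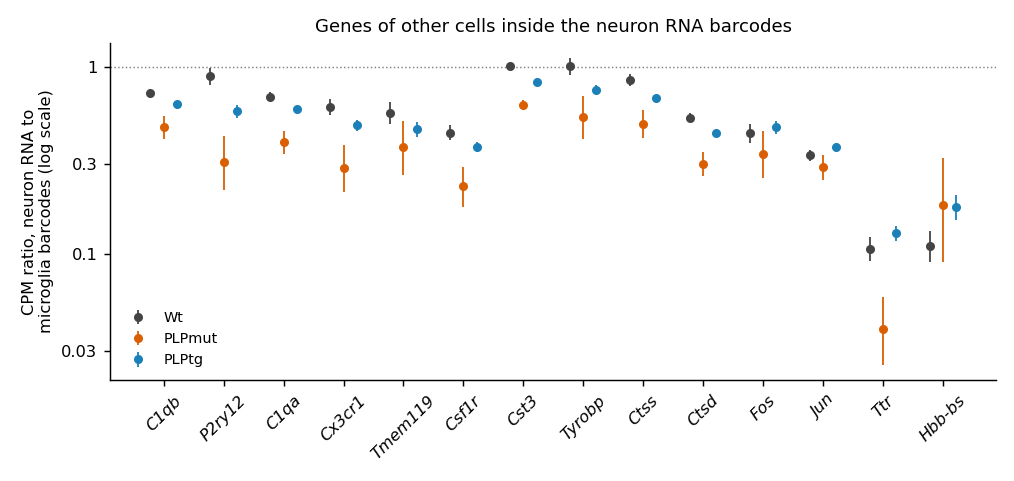
Ratio of CPM in neuron RNA barcodes to CPM in microglia barcodes of the same library (log scale) for microglial genes and for Ttr of choroid plexus and Hbb-bs of red blood cells, with exact 95% intervals; the dotted line marks equal levels. The microglial genes drawn lie between 0.229 (Csf1r in PLPmut) and 1.01 (Cst3 and Tyrobp in Wt), PLPmut is the lowest library for each microglial gene drawn, and Ttr lies at 0.0395 to 0.128.

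Members with more neuronal RNA held less microglial RNA. Within each library, members were divided into 3 groups of equal size by their percentage of neuron-enriched UMIs. From the lowest to the highest group, the median percentage of the microglia list was 2.43%, 1.86% and 1.5% in Wt, 1.27%, 0.893% and 0.668% in PLPmut, and 2.46%, 1.96% and 1.24% in PLPtg. The percentages share 1 total, and part of such a decline follows from that. In the highest group the neuron-enriched genes reached a median of 10.8%, 13.9% and 11.8%.

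Mitochondrially encoded RNA, a mark of cytoplasm, made up 6.36% of member UMIs in Wt, 10.2% in PLPmut and 5.10% in PLPtg, compared with 5.45%, 5.84% and 4.01% in microglia barcodes. The median member had 4.58%, 8.72% and 3.54%, and the 90th percentile was 15.4%, 30.8% and 13.7%. In PLPmut the percentage differed along the members, with a median of 17.9% in the group with the least and 3.09% in the group with the most neuron-enriched RNA, and the Spearman correlation over its 84 members was -0.53 (-0.16 over 324 in Wt, -0.28 over 780 in PLPtg). These percentages again come from the same barcodes and totals. Median mitochondrial percentages were 3.24% in striatal, 2.08% in glutamatergic and 4.48% in unassigned members, over groups of unequal library mix: 66 of 84 glutamatergic and 110 of 204 striatal members were from PLPtg, the library with the lowest median.

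Among nuclear non-coding RNAs, Malat1, retained in the nuclei of nearly all cells, made up 4.70%, 6.15% and 4.74% of member UMIs and 9.41%, 8.63% and 6.66% of those of microglia barcodes, and a UMI of it was found in every member. Those with neuronal expression were in contrast above the other barcodes. Miat was at 226, 272 and 389 CPM in Wt, PLPmut and PLPtg (67.0 times the other barcodes over all members), Mirg at 194, 220 and 159 CPM, and Kcnq1ot1, which other cells also express, at 831, 1193 and 1136 CPM (3.58 times). Neat1, the scaffold of paraspeckles, was at 0.404 times. Meg3 and Snhg11 of the rule made up 1.43%, 1.76% and 1.85% of UMIs, and 0.0106%, 0.00696% and 0.0340% in microglia barcodes. Of these, Snhg11 is typed as protein-coding in the annotation used.

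**Figure D4:**
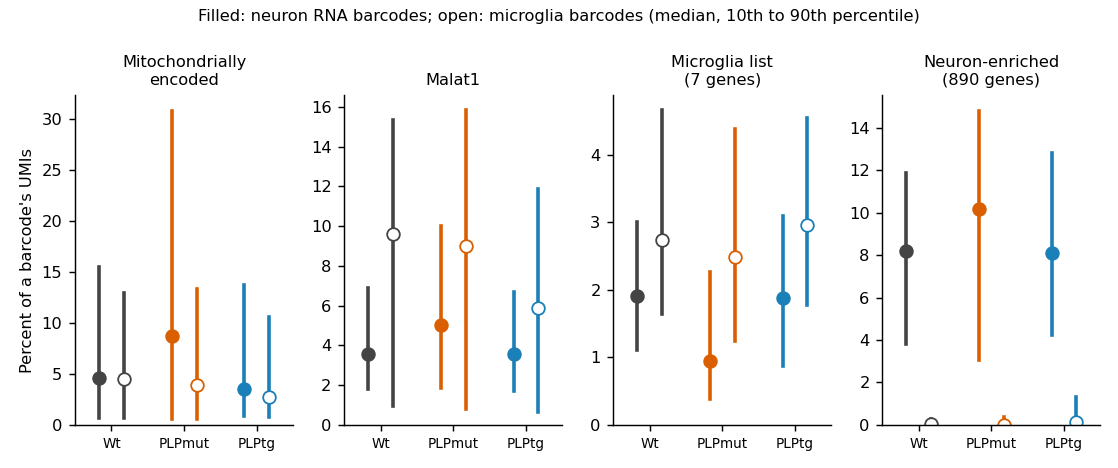
Percentage of a barcode's UMIs from mitochondrially encoded genes, Malat1, 7 microglial genes and the 890 neuron-enriched genes, as median (circle) with the 10th to 90th percentile (line) for neuron RNA barcodes (filled) and microglia barcodes (open) in each library. Malat1 and the microglia list are lower in neuron RNA barcodes in each library, and PLPmut members have the highest median of mitochondrial RNA (8.72%).

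Messages known from dendrites and the postsynapse were among the neuronal RNA of members. The dendrite list was at 2122 CPM in Wt, 2515 in PLPmut and 2670 in PLPtg. Of its 11 genes, 9 were at least 10 times as high as in other barcodes, against 9.87% of all genes compared. Camk2a, the kinase whose mRNA is carried into dendrites, led with 189, 55 and 712 UMIs (677, 713 and 918 CPM), followed by Map2 of the dendritic cytoskeleton with 116, 44 and 319 UMIs. The scaffold genes Shank1 and Dlg4 had 382 UMIs each and the calmodulin-binding Nrgn 247 in all members. The dendritic mRNAs Arc and Ddn, in contrast, had only 26 and 30 UMIs. After thinning, 32.5% of members and 1.74% of microglia barcodes had a UMI of Camk2a (46.4% of members without thinning). Levels are not scaled for transcript length, and lists differ in size, so that their sums do not rank compartments by RNA content.

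The axonal and cytoskeletal list was at 1387, 1685 and 1589 CPM, and Map1b was the largest part of it with 216, 82 and 703 UMIs. Mapt, which encodes tau, had 53, 11 and 188 UMIs, and Nefm 36, 9 and 126. The other neurofilament genes were at 19 (Nefl) and 7 (Nefh) UMIs in all members. Nmnat2 and Sarm1, enzymes that preserve and destroy axons, had 22 and 15 UMIs, too few for a comparison between libraries. Presynaptic genes summed to 1133, 1724 and 1479 CPM, with 7 of 12 at least 10 times as high as in other barcodes (9.87% of all genes compared). The complexin gene Cplx2 had 36, 19 and 108 UMIs, the active zone gene Bsn 28, 7 and 89, and Vamp2, which glia also express, was at 1.92 times.

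Receptor and channel genes, most of them long, had the highest ratios of the compartment lists, with medians of 53.2 and 43.4 times. All 8 receptor genes and all 9 ion channel genes were at least 10 times as high as in the other barcodes, against 9.87% of all genes compared. The NMDA receptor genes Grin1 and Grin2a were at 366, 531 and 370 CPM and at 211, 376 and 267 CPM in Wt, PLPmut and PLPtg. The AMPA receptor gene Gria3 was at 290, 298 and 357 CPM, and Grm5, a metabotropic glutamate receptor gene, at 276, 181 and 258 CPM. The sodium channel gene Scn2a was at 344, 752 and 384 CPM, and Cacna1a of presynaptic calcium channels at 405, 454 and 427 CPM.

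The length of the neuron-enriched genes stood apart. Those of at least 50 CPM (417 of 418 with an annotation) had a median genomic span of 112 kb (interquartile range 33.8 to 303 kb), and the 2284 genes of the same level that were between 0.5 and 2 times the other barcodes had 26.4 kb (10.4 to 61.0 kb). The exonic length was 5.55 kb and 3.64 kb. Of the neuron-enriched genes, 17 were long non-coding and 400 protein-coding. Whether their UMIs came from spliced or unspliced molecules cannot be read from gene counts.

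The early response list was at 8057, 4835 and 6024 CPM in members and at 23108, 16945 and 15237 CPM in microglia barcodes. Jun, Fos, Junb and Btg2, which microglia also express, gave most of it, while the neuronal Npas4 and Arc had 27 and 26 UMIs and were 30.4 and 14.7 times as high as in the other barcodes. The injury list was at 373 CPM in members and 645 CPM in microglia barcodes, and Sprr1a, a gene of regenerating neurons, had 0 UMIs. Xist was at 4878, 6157 and 5195 CPM, while of the Y-linked genes in the list Uty had 2 UMIs and Ddx3y, Eif2s3y and Kdm5d had 0 in all members. Gm47283, annotated to chromosome Y as well, was not used to judge sex and is given with the comparison of libraries.

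Between libraries, gene levels were compared within members and without a test. Among genes with at least 20 UMIs in both libraries together, 5.9% of 3561 genes were at least 2-fold higher and 12.9% at least 2-fold lower in PLPmut than in Wt, and 5.33% of 8010 genes were higher and 2.55% lower in PLPtg. Which direction prevailed turned with the minimum of UMIs: without one, 1762 genes were higher and 1131 lower in PLPmut (210 and 461 with it), and 1002 were higher and 1351 lower in PLPtg (427 and 204 with it). Without barcodes that met the rule for another cell type, 3 Wt members and few genes were left to compare. Of 45 genes, 13 were higher and 10 lower in PLPmut, and of 39 genes, 8 were higher and 9 lower in PLPtg. These counts are too small to set a direction. The whole interval lay beyond 2-fold for only 2 higher and 4 lower genes in PLPmut and for 10 higher and 2 lower genes in PLPtg. The glutamatergic list was higher in both, by 1.13 in PLPmut (0.50 to 1.75) and by 1.03 in PLPtg (0.63 to 1.45) on the log2 scale of summed levels. The striatal list was at 0.34 in PLPmut (0.07 to 0.60) and at -0.37 in PLPtg (-0.53 to -0.20). Set against neuron-enriched UMIs, the glutamatergic list remained higher in both (0.76 and 0.78), the striatal list was at -0.03 in PLPmut and -0.61 in PLPtg, and the dendritic, axonal, presynaptic, receptor and channel lists lay between -0.14 and 0.24 in both libraries, with intervals that included 0. Of the glutamatergic genes with enough UMIs, 2 of 2 were at least 2-fold higher in PLPmut and 3 of 4 in PLPtg, whereas 0 of 6 and 0 of 12 striatal genes were, and 1 of the 12 was at least 2-fold lower in PLPtg.

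**Figure D5:**
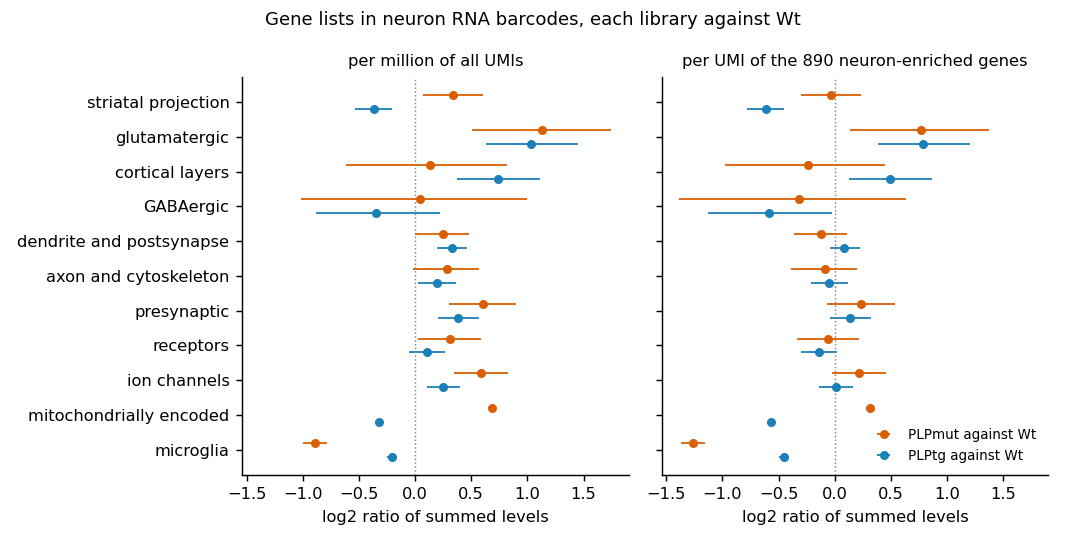
Log2 ratio of the summed level of each list in PLPmut (orange) and PLPtg (blue) to Wt within neuron RNA barcodes, with exact 95% intervals for counting error; left, from CPM, and right, from levels per UMI of the 890 neuron-enriched genes. The glutamatergic list lies above 0 in both panels and libraries, the striatal list of PLPtg lies below 0 in both, and among the lists drawn the microglia list has the lowest value in PLPmut.

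The single genes that differed most from Wt included genes of microglia in PLPtg. Apoe, a lipid carrier, had 2610 UMIs in PLPtg members and 151 in Wt members (6.22-fold, 5.28 to 7.38), and Cst7 and Spp1, which mark activated microglia, had 114 and 3 UMIs and 142 and 4 UMIs. The microglia barcodes of the same libraries differed likewise for Apoe, at 7719 CPM in PLPtg and 915 CPM in Wt. The same held there for Cst7 (230 and 5.80 CPM) and Spp1 (580 and 8.70 CPM). Gm47283, which is annotated to chromosome Y, had 135 UMIs and 1 in members, and the scaffold gene Magi1 90 and 8. In microglia barcodes of PLPtg and Wt, Gm47283 was at 71.6 and 14.7 CPM and Magi1 at 32.3 and 34.8 CPM. Lower in PLPtg were the kinase gene Itpkb (13 and 32 UMIs), the iron exporter Slc40a1 (32 and 30 UMIs, 0.384-fold), Ubash3b, Adamts1 and Chd7. In PLPmut, the nuclear envelope gene Syne2 had 16 UMIs beside 12 in Wt (4.82-fold, 2.14 to 11.2), Prkar1b 11 and 9, Pde1c 13 and 12, Xkr6 27 and 26, and Soat1 10 and 10 (level with Cnr1, Chpt1 and Rfx7). Their intervals lay above 1, but the genes of this paragraph were taken from the ends of the ranking of ratios. Intervals apart from 1 are therefore no support for a difference. Where the UMIs are equal, the ratio only reflects the unequal UMI totals of the members in both libraries. Med21 had 0 UMIs in PLPmut and 29 in Wt, which is at least 2.67-fold lower against the limit of 3 counts (exact interval of the ratio up to 0.491), and Gng5 had 1 and 46 (0.0786-fold, 0.00195 to 0.460). Pkig, Itpkb and Paip2 had 1 UMI each in PLPmut and 34, 32 and 31 in Wt.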

How the data were processed

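The authors digested, sorted and encapsulated brain cells and deposited UMI counts per gene and barcode, as raw counts in 1 matrix for each library. The submitters' processing notes name Cell Ranger 2.0.2, STAR 2.5.1b, Seurat 4.0 and the mm10 build, while the matrix headers name software version 3.1.0. Counts were used as deposited, with no filter other than the rule that chose the members. No doublet caller was run. Levels are counts per 1000000 (CPM) of the summed UMIs of a group of barcodes. To compare how many barcodes held a gene, each barcode was thinned at random to 500 UMIs. The members and the 40 gene lists were chosen with earlier results of these data known. Of the genes in lists, 3 (Rian, Peg13 and Snhg14) were not among the 31053 features. Named genes are those of the lists, the 20 with the largest ratio to other barcodes among genes of at least 100 CPM, the 10 most abundant, and the 5 highest and 5 lowest against Wt, with ties, among genes of at least 100 CPM in either library that are not mitochondrially encoded; genes that differed between striatal and glutamatergic members were chosen after their values were seen. Ratios were tested on simulated data with known folds. Gene positions, types and lengths are from GENCODE M21 (GRCm38), miRNAs from RefSeq. Python 3.11.15, numpy 2.4.6, scipy 1.17.1, pandas 2.3.3 and matplotlib 3.10.9 were used. Alternatives changed the marker minimum, depth range, other classes, scaling, filters and thinning. Values of some genes, the gene altered in the mutant lines among them, are not reported here.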

Additional observations from a re-analysis of the deposited data

Results flagged for a closer look

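Outside the UMI range, 136 Wt, 44 PLPmut and 151 PLPtg barcodes over 3000 UMIs also held 5 or more UMIs from at least 3 of the 7 genes, which drew attention because members were limited to 3000 UMIs; they enter only the setting with no upper limit. Their 7 genes made up a median of 0.165%, 0.0939% and 0.211% of UMIs, compared with about 2% in members, and 11, 5 and 34 of them reached 0.5%.

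For a pair of lists, the libraries moved in opposite directions from Wt on the log2 scale of summed levels with both intervals apart from 0, and the difference was not tested. Other lists had opposite signs with at least 1 interval that included 0, such as the cerebellar granule list: its value was 1.58 in PLPmut (interval 0.62 to 2.52) and -0.51 in PLPtg (interval -1.26 to 0.29). The striatal list was at 0.34 in PLPmut and at -0.37 in PLPtg, although set against neuron-enriched UMIs it was at -0.03 in PLPmut and the directions no longer opposed each other. Mitochondrially encoded genes were at 0.68 in PLPmut and at -0.32 in PLPtg, and set against neuron-enriched UMIs at 0.31 and -0.56.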

How the results depend on the processing

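No paired analysis was possible because each genotype has 1 library. Counts of members were 324, 84 and 780 in Wt, PLPmut and PLPtg, but 110, 50 and 335 when Meg3 and Snhg11 left the rule, and 3, 17 and 9 without barcodes that also met the rule for other cell types. With no upper limit of UMIs PLPmut had 128. The GABAergic share of 24.7% was 6.67% without barcodes of other cell types, with an interval (0.169% to 31.9%) that includes 24.7%. It was 21.4% to 35.5% when 1 library was left out, the highest without PLPtg. The mitochondrial share of 5.76% was 6.08% with a marker sum of at least 3, 5.31% with 10, 5.55% with 4 marker genes, 6.28% at 500 to 2000 UMIs, 3.05% with no upper limit, 10.1% without other cell types and 4.69% without Meg3 and Snhg11, and 5.43% to 7.20% when 1 library was left out. The share of the nuclear non-coding list of 5.0% was 5.23% with a marker sum of 10, 5.14% with 4 marker genes, 4.42% at 500 to 2000 UMIs, 4.47% with no upper limit, 6.14% without other cell types, 5.69% without Meg3 and Snhg11 and 5.31% without mitochondrial genes, and 4.90% to 5.17% when 1 library was left out. Malat1 alone made up 4.82% of member UMIs and 8.19% of those of microglia barcodes, so that the share of this list is no measure of neuronal nuclear RNA alone. Genes past 2-fold numbered 671 in PLPmut and 631 in PLPtg, 2893 and 2353 with no minimum of UMIs, 48 and 26 with at least 100 UMIs, and 23 and 17 without other cell types. With no minimum of UMIs the prevailing direction turned in both libraries. Without other cell types only 45 and 39 genes were compared, too few to set a direction. Shares of members with a UMI of Slc17a7, Pde10a and Camk2a were 7.32%, 15.2% and 32.5% at 500 UMIs, 12.9%, 22.8% and 46.4% without thinning, and 17.5%, 27.7% and 53.1% at 1000 UMIs. Alternatives for the striatal share and for list ratios were chosen after seeing the data. The striatal share in Wt, PLPmut and PLPtg was 67.9%, 50% and 42.6% with minimums of 2 and 1, 93.8%, 78.6% and 71.1% with 5 and 3, and 68.0%, 54.5% and 46.4% after thinning; PLPtg was at 54.6% in members of 1000 UMIs or more; over all libraries it was 70.8%, and 49.9%, 77.2%, 53.4% and 60.3% under these settings. Set against neuron-enriched UMIs, ratios to Wt reversed for the striatal (-0.031), dendrite (-0.12) and receptor (-0.060) lists in PLPmut and the axonal list (-0.049) in PLPtg, and the axonal list in PLPmut (-0.089) and the receptor list in PLPtg (-0.14) changed sign too; this scaling shifts every list of a library by 1 constant, and the intervals of all these values include 0. In each of these cases the cause was not tested. The number of captured molecules limits precision: a list of 12 UMIs, as the GABAergic one in PLPmut, has an interval of 80.4 to 272 CPM.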
